A study of Macaca fascicularis with 20 samples.

Results

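Natural killer (NK) cells read most of their activating receptors through short transmembrane chains and small adaptor proteins. The 6 genes followed here in sorted spleen NK cells and B cells of the cynomolgus macaque were the receptor chains CD247, TYROBP and CD3D, and the adaptors SH2D1A, SH2D2A and TRAT1. Their probes were found by matching each probe's transcript accession to the macaque RefSeq gene table, which gave 6 genes and 8 probes out of 12530 named genes and 58659 probes on the array.

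The chains carry immunoreceptor tyrosine-based activation motifs (ITAMs) that are phosphorylated when a receptor is engaged and then bind the kinases ZAP70 and SYK. CD247 (CD3 zeta) serves CD16 and the natural cytotoxicity receptors in NK cells and the T cell receptor in T cells, whereas TYROBP (DAP12) serves activating receptors of NK and myeloid cells, and CD3D belongs to the T cell receptor complex. SH2D1A (SAP) links receptors of the SLAM family to the kinase FYN, SH2D2A (TSAd) binds the kinase LCK, and TRAT1 (TRIM) is a transmembrane adaptor known as a partner of the T cell receptor.

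The 20 one-colour arrays measured unstimulated spleen cells that had been frozen, thawed and sorted by flow cytometry. All NK cells were NKG2A+ and CD8a+ and came from live cells positive for CD45 and negative for CD3, CD14, CD20 and HLA-DR. They were split by surface CD27 and CD11b into double-low cells (CD27lo CD11blo, 4 arrays), CD27 single-positive cells (CD27+ CD11blo, 4 arrays), double-positive cells (CD27+ CD11b+, 5 arrays) and CD11b single-positive cells (CD27lo CD11b+, 5 arrays). The B cells (2 arrays) were NKG2A-, CD8a-, HLA-DR+ and CD20+. The animals came from Cambodia, Vietnam and Singapore, were of both sexes, and were 4 to 18 years old where a number of years was given. Both B cell arrays came from Singapore females, aged 5 and 18 years. NK arrays came from males of Cambodia, Vietnam and Singapore and from the Singapore female aged 18 years, with none from the female aged 5 years. Origin and sex were thus not matched between NK and B cell arrays. Within an origin, sex and age label the 4 subsets may come from 1 animal, which the labels do not state. For the Vietnam male numbered 3 the stated age runs from 9 to 12 years over the subsets. The samples are called biological replicates in the labels.

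The 75th percentile of signal per array ran from 180 to 1897, with double-positive replicate 4 and double-low replicate 4 the dimmest, and 67.9% to 96.0% of probes were well above background. The arrays were spread over 3 slides. Slide 1 carried the replicates numbered 1 and 2 of all NK subsets, both B cell arrays lay on slide 2 beside 6 NK arrays, and slide 3 held 4 CD11b+ arrays. Of 13 measured NK cell markers 8 passed the test as higher in NK than in B cells, among them GZMB by 5.84 ± 0.46 (SE) and KLRD1 by 6.67 ± 0.57 on the log2 scale, and of 12 measured B cell markers 8 passed as lower, among them PAX5 by -4.71 ± 0.52. CD3E, CD3G, CD14 and MS4A1 (CD20), which bear on the gates, were not analysed here because no probe was matched to them.

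Levels are given on a log2 scale on which 0 is the 75th percentile of the same array, so that 1 unit is a factor of 2. A level of one probe says nothing of the level of another, and only differences between samples are compared. Every member was well above background on all 18 NK arrays, and all 6 were tested. Differences were tested with limma over all genes at once, with Benjamini-Hochberg adjustment and a threshold of 0.05.

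**Figure D1:**
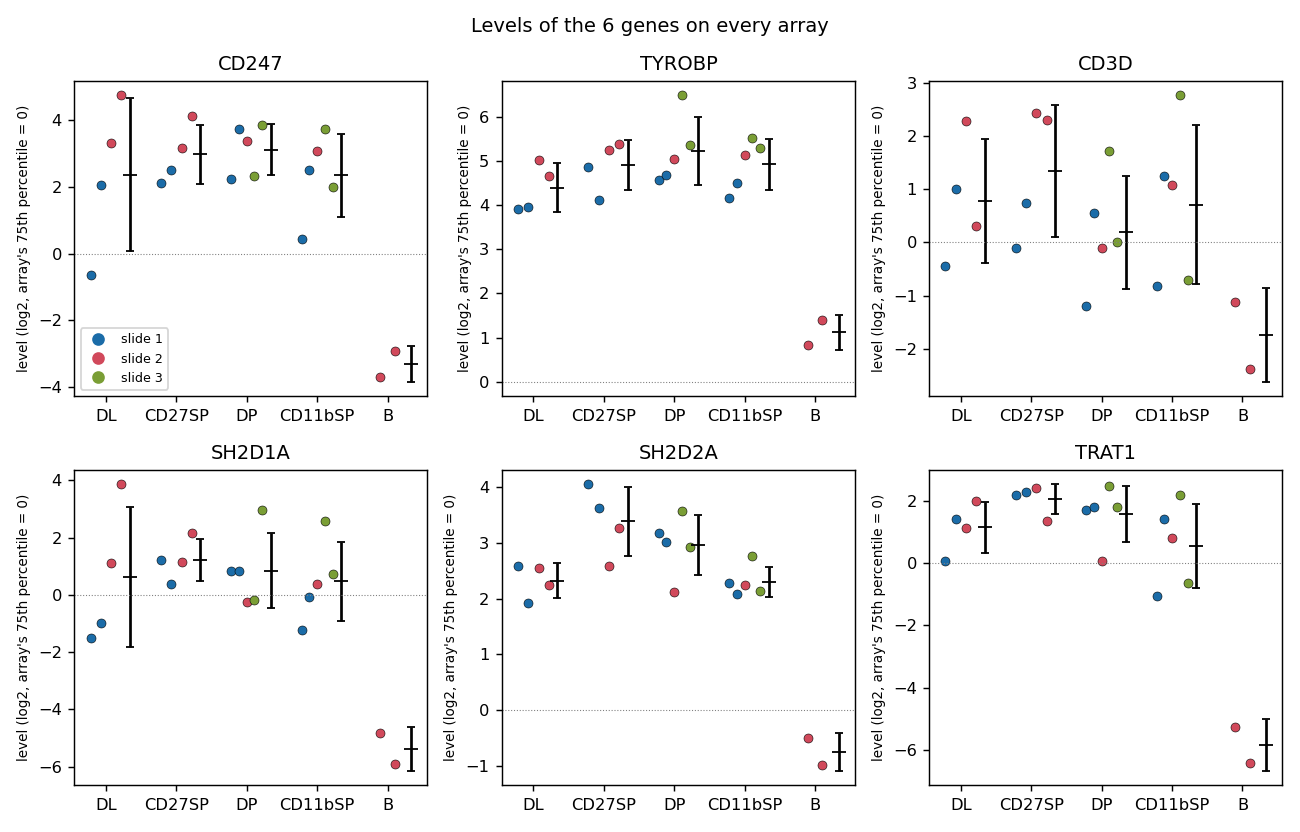
Level of each of the 6 genes on every array (log2, the array's 75th percentile set to 0), by double-low (DL), CD27 single-positive (CD27SP), double-positive (DP), CD11b single-positive (CD11bSP) and B cells (B); points are arrays coloured by slide, and the bar beside each group is its mean ± SD. For 5 genes every NK array lies above both B cell arrays, CD3D overlaps, and the 4 NK subsets overlap in every panel.

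NK cells and B cells were compared first, as the mean of the 4 subset means minus B cells. All genes but CD3D passed as higher in NK cells, CD247 by 6.0, TYROBP by 3.74 and SH2D2A by 3.48 on the log2 scale. Fitted differences were 7.18 for TRAT1 and 6.16 for SH2D1A, whose B cell signals were not well above background on either array (TRAT1) or on 1 of them (SH2D1A). CD3D was higher by 2.50 and did not pass (adjusted p = 0.107 by limma). In all, 5 of the 6 members passed the test as higher, where 1.72% of 12388 genes did so (213 genes; 149 genes, or 1.2%, passed as lower, and 2.92% in either direction). On the same 5 genes no NK array overlapped a B cell array, a pattern that 7.43% of genes showed in that direction. The members were chosen with earlier results of these data known. Their counts beside the shares of all genes, here and below, are thus descriptions and no test of the set. The median difference of all genes was 0.36. Each array holds the RNA of many sorted cells, so fewer cells of a type and less RNA per cell cannot be told apart in any of these values.

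CD247, the zeta chain, stood at -3.69 and -2.92 on the B cell arrays. In double-low cells it was -0.65, 2.05, 3.30 and 4.74, and in CD27 single-positive cells it was 2.11, 2.50, 3.15 and 4.12. The double-low arrays thus span almost the whole range of the gene, with both its lowest and its highest NK value. The highest is on double-low replicate 4, 1 of the 2 dimmest arrays, and without those 2 arrays the NK minus B difference was 5.85. In double-positive cells CD247 measured 2.25, 3.74, 3.38, 2.34 and 3.84, and in CD11b single-positive cells 0.45, 2.49, 3.07, 3.74 and 2.01. Every NK array lay above both B cell arrays, the lowest being double-low replicate 1 at -0.65. The NK minus B difference was 6.0 ± 0.91 (SE; 95% interval 4.10 to 7.90; adjusted p = 0.000577 by limma). Without B cell replicate 1 the difference was 5.62 and the call was lost (adjusted p = 0.0617); over 34 alternatives the difference ran from 5.17 to 6.96 and it was lost in that one. By mean the subsets stood in the order double-positive (3.11 ± 0.76 SD, n = 5), CD27 single-positive (2.97 ± 0.88, n = 4), double-low (2.36 ± 2.29, n = 4) and CD11b single-positive (2.35 ± 1.24, n = 5), and no neighbours in that order differed beyond their spread.

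TYROBP, the DAP12 chain, was 0.84 and 1.39 in B cells. Its NK levels were 3.90, 3.96, 5.02 and 4.66 in double-low cells and 4.85, 4.12, 5.25 and 5.38 in CD27 single-positive cells. They were 4.56, 4.69, 5.03, 6.48 and 5.36 in double-positive cells and 4.15, 4.50, 5.14, 5.52 and 5.28 in CD11b single-positive cells. The gene was well above background in B cells too, and the step to NK cells was 3.74 ± 0.46 (SE; 95% interval 2.78 to 4.69; adjusted p = 4.5e-05 by limma), a 13.3-fold difference. Double-positive cells had the highest mean (5.23 ± 0.77 SD, n = 5), then CD11b single-positive (4.92 ± 0.57, n = 5), CD27 single-positive (4.90 ± 0.56, n = 4) and double-low cells (4.39 ± 0.55, n = 4), with no neighbours apart beyond their spread. The place of double-positive cells rests on replicate 4 (6.48), the dimmest array: without it they stood 3.79 above B cells, where CD11b single-positive cells stood 3.80 above. A second TYROBP probe, for another transcript record, gave 3.77 ± 0.51 between NK and B cells (adjusted p = 0.000149 by limma over all probes), with means of 4.83 in CD11b single-positive, 4.80 in double-positive, 4.72 in CD27 single-positive and 4.16 in double-low cells. The probes correlated at r = 0.76 over the 18 NK arrays and differed by more than 0.60 on 1 array, double-positive replicate 5, where the second was lower by 1.83. TYROBP is also expressed by myeloid cells: 11 of 14 monocyte or macrophage markers were measured, none passed between NK and B cells, and their summed level was 2.38 to 3.66 on NK arrays and 2.75 to 3.85 on B cell arrays. Of those 11 markers at least 10 were well above background on each array, and their part in the TYROBP level was not tested.

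CD3D, of the T cell receptor complex, was the exception. B cells measured -1.12 and -2.37. Double-low cells measured -0.45, 1.01, 2.27 and 0.31, and CD27 single-positive cells -0.11, 0.74, 2.43 and 2.30. Within each of these subsets the arrays spread over more than 2 units. Double-positive cells measured -1.19, 0.55, -0.11, 1.71 and 0.00, and CD11b single-positive cells -0.82, 1.25, 1.07, 2.76 and -0.71. Double-positive replicate 1 lay just under B cell replicate 1, and the other 17 NK arrays were higher than either B cell sample. The difference was 2.50 ± 0.85 (SE; 95% interval 0.72 to 4.28; unadjusted p = 0.00839, adjusted p = 0.107 by limma), which did not pass. With array weights it was 2.56 and passed (adjusted p = 0.000491), where 45.8% of all genes passed, and within slide 2 alone it was 2.90 and passed (adjusted p = 0.0452), where 15.5% did; over all alternatives the adjusted p ran from 0.000491 to 0.631. CD27 single-positive cells had the highest mean (1.34 ± 1.24 SD, n = 4) and double-positive cells the lowest (0.19 ± 1.06, n = 5), within their spread.

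SH2D1A, which encodes SAP, was lowest in B cells, at -4.82 and -5.91, and only 1 of those arrays was well above background. It was -1.50, -0.97, 1.1 and 3.87 in double-low cells and 1.23, 0.39, 1.13 and 2.15 in CD27 single-positive cells. As for CD247, double-low cells held both the lowest and the highest NK array, the latter again the dim replicate 4. Double-positive cells gave 0.85, 0.84, -0.24, -0.19 and 2.98, and CD11b single-positive cells -1.22, -0.09, 0.38, 2.58 and 0.73. The NK minus B difference was 6.16 ± 1.03 (SE; 95% interval 4.00 to 8.32; adjusted p = 0.0016 by limma). Without B cell replicate 2 it was 5.62 and did not pass (adjusted p = 0.123), and with normexp background correction it was 4.56; it passed in 33 of 34 alternatives. The subset means were 1.22 ± 0.72 (SD, n = 4) in CD27 single-positive, 0.85 ± 1.31 (n = 5) in double-positive, 0.62 ± 2.44 (n = 4) in double-low and 0.47 ± 1.39 (n = 5) in CD11b single-positive cells, all within each other's spread.

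SH2D2A, which encodes TSAd, was -0.49 and -0.98 in B cells. In double-low cells it was 2.59, 1.92, 2.54 and 2.24, and in CD11b single-positive cells 2.28, 2.08, 2.24, 2.77 and 2.13. These CD27lo subsets were tightly grouped, with no array above 2.77. CD27 single-positive cells gave 4.05, 3.63, 2.58 and 3.27, and double-positive cells 3.17, 3.02, 2.12, 3.57 and 2.93. Replicate 3 was the lowest array of both CD27+ subsets and lay within the CD27lo range, and every other CD27+ array was at 2.93 or above. Against B cells the difference was 3.48 ± 0.38 (SE; 95% interval 2.69 to 4.27; adjusted p = 1.67e-05 by limma), and it passed in 34 of 34 alternatives. The second SH2D2A probe gave 3.32 ± 0.36 (adjusted p = 1.5e-05 by limma over all probes), correlated with the first at r = 0.94 over NK arrays and differed from it by at most 0.47 on any array.

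TRAT1, the transmembrane adaptor, was not well above background on either B cell array, where its signal was -5.26 and -6.43. Double-low cells measured 0.07, 1.42, 1.14 and 2.02, and CD27 single-positive cells 2.20, 2.29, 2.42 and 1.35. Double-positive cells measured 1.71, 1.82, 0.07, 2.50 and 1.80, and CD11b single-positive cells -1.04, 1.43, 0.81, 2.19 and -0.63. Every NK array was far above both B cell arrays, and the 2 lowest NK arrays were both of CD11b single-positive cells. The fitted difference was 7.18 ± 0.69 (SE; adjusted p = 4.33e-06 by limma). Set against the dimmest signal that counts as well above background, and with the reported background correction, NK cells were at least 95-fold higher, and the single subsets at least 84-fold (double-low), 157-fold (CD27 single-positive), 112-fold (double-positive) and 55-fold (CD11b single-positive) higher. These bounds do not carry over to normexp background correction, with which the fitted log2 difference was 5.32 for NK cells and 4.61 to 6.02 for the single subsets, each smaller than its bound. The NK minus B difference passed in 34 of 34 alternatives.

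Since CD247, CD3D and TRAT1 are also T cell genes, the T cell marker list was read beside them. Of 21 markers 13 were measured, and the only ones that passed between NK and B cells were CD247 and TRAT1 themselves; the median difference of the 13 was 1.35. Their summed level was 5.36 to 6.95 on NK arrays and 4.64 to 4.80 on B cell arrays, with 11 to 13 well above background on NK arrays and 10 or 11 on B cell arrays. THEMIS, a T cell signalling protein, differed by 2.37 ± 0.71 (adjusted p = 0.0733 by limma) and CD40LG, a T cell surface ligand, by 1.44 ± 0.50 (adjusted p = 0.111), which with CD3D had the lowest p-values of the others. The median and the summed level take in CD247, CD3D and TRAT1, and so do not describe the list apart from the members. The part of any T cells in these levels was not tested.

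**Figure D2:**
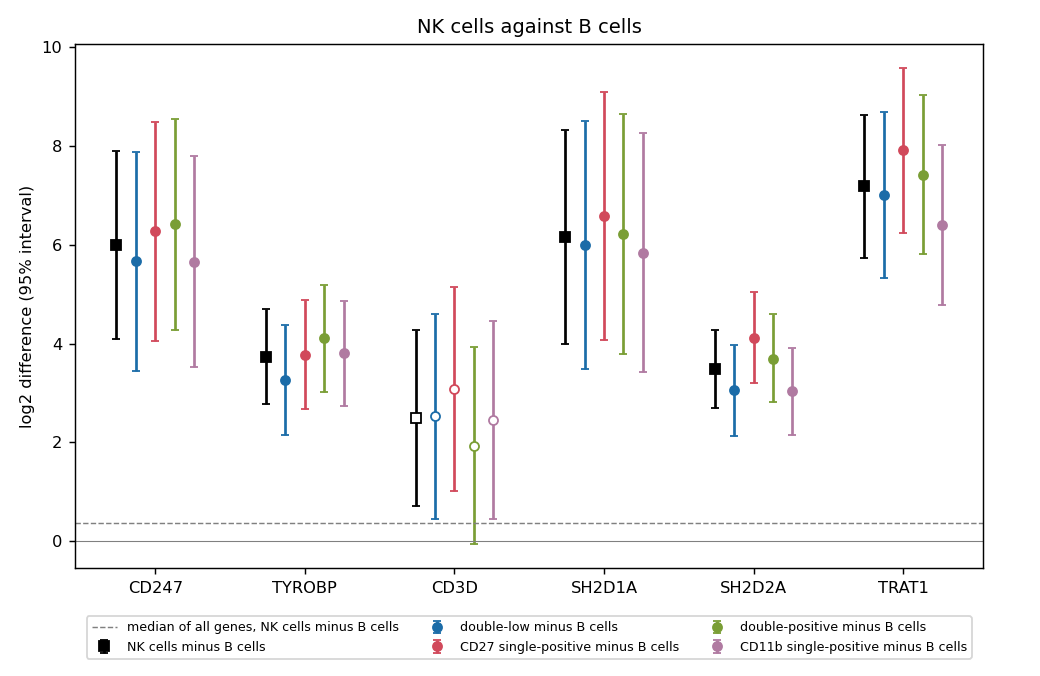
Difference between NK cells and B cells (log2, with 95% interval) for the 6 genes, for the mean of the 4 subsets (squares) and each subset (circles); filled symbols have an adjusted p under 0.05. In each of the 5 comparisons the same 5 genes passed and CD3D did not, and all estimates lie above the all-gene median of 0.36. The points of TRAT1 and SH2D1A are fitted against B cell signals not well above background on 2 and 1 of 2 arrays.

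Each subset was also set against the same 2 B cell arrays, which the 4 comparisons share. In each comparison 5 of 6 members passed, all but CD3D, or 20 of 24 tests. The shares of all genes that passed as higher were 7.52% for double-low, 0.533% for CD27 single-positive, 0.613% for double-positive and 1.1% for CD11b single-positive cells. SH2D2A differed by 4.12 ± 0.44 (SE) in CD27 single-positive and by 3.04 ± 0.43 in CD11b single-positive cells. TYROBP differed by 3.27 ± 0.53 in double-low cells and by 4.11 ± 0.51 in double-positive cells. CD3D differed by 1.94 ± 0.96 in double-positive cells (95% interval -0.06 to 3.94) and by 3.09 ± 0.99 in CD27 single-positive cells (95% interval 1.02 to 5.15). These counts lean on the B cell arrays: 11 of 24 tests passed without B cell replicate 1, 14 without B cell replicate 2 and 9 within slide 2, where 6 NK arrays remain.

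The Singapore female aged 18 years gave an NK array of every subset and B cell replicate 2. Within that label the mean of 4 NK arrays minus the B cell array was 6.60 for CD247, 3.78 for TYROBP, 3.62 for SH2D2A and 2.85 for CD3D. Every one of its NK arrays was above its B cell array for all 6 genes, by 1.66 at the least (CD3D). SH2D1A and TRAT1 were not well above background on that B cell array, so no difference is given for them. There is no replicate of this comparison and no test.

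The other genes of these signalling routes were taken from 8 lists, which were also chosen with earlier results of these data known. Of 104 listed genes 70 were tested, and apart from the 6 members 6 of 64 passed between NK and B cells (9.38%, against 2.92% of all genes), 4 as higher in NK cells and 2 as lower. Among the ITAM chains, 3 of 5 tested passed as higher: CD247, TYROBP and FCER1G, the Fc receptor gamma chain (3.68 ± 0.62 SE, adjusted p = 0.00169 by limma). CD79B, a chain of the B cell receptor, differed by -0.99 ± 0.45 and did not pass (adjusted p = 0.199). The median of the ITAM list, which holds the members CD247, TYROBP and CD3D, was 3.68, the value of FCER1G, against 0.36 for all genes. It therefore does not describe the list apart from the members.

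Of 6 tested SH2 adaptors related to SAP and TSAd, SH2D1A and SH2D2A passed and no other did. Of 7 transmembrane adaptors TRAT1 alone passed. Its relatives LAT and LAX1, which scaffold signalling beside antigen receptors, differed by 1.01 ± 0.38 (adjusted p = 0.135 by limma) and 1.04 ± 0.43 (adjusted p = 0.165). With the members counted in, the medians were 1.11 for the SH2 adaptors and 0.60 for the transmembrane adaptors, with 5 of 6 and 5 of 7 differences above 0.

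None of the 6 tested genes of the activating receptor list passed between NK and B cells, and none of the 6 tested SLAM family receptors. The activating receptors of lowest p were CD226, an activating receptor of NK and T cells with a signalling motif in its own tail (1.72 ± 0.49 SE, adjusted p = 0.0612 by limma), and TREM1, a partner of TYROBP (1.29 ± 0.49, adjusted p = 0.136). In double-low cells alone against B cells both passed as higher, CD226 by 2.13 ± 0.57 (adjusted p = 0.0338 by limma) and TREM1 by 1.96 ± 0.57 (adjusted p = 0.041), where 7.52% of all genes did; neither passed in the other 3 subsets, and that difference between subsets was not tested here. Among SLAM receptors they were CD84 (1.71 ± 0.53, adjusted p = 0.0815 by limma) and SLAMF6 (-1.41 ± 0.58, adjusted p = 0.165). SH2D1A passed while no measured SLAM receptor did, CD244 and LY9 not being analysed here.

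Of 10 tyrosine kinases 1 passed as higher in NK cells and 1 as lower. ZAP70, which binds phosphorylated ITAMs, was higher by 1.99 ± 0.35 (SE, adjusted p = 0.00239 by limma). LYN, a Src family kinase of B and myeloid cells, differed by -1.98 ± 0.52 (adjusted p = 0.0451). Of 22 cytosolic adaptors and effectors 1 passed, BLNK, the B cell linker, with -4.99 ± 1.28 (adjusted p = 0.0407). Of 8 phosphatases and inhibitors 2 passed as higher: UBASH3B, a phosphatase acting on ITAM kinases (3.01 ± 0.77, adjusted p = 0.0406), and DGKZ, which removes diacylglycerol (1.73 ± 0.40, adjusted p = 0.0236). The medians of these lists were 0.16, -0.59 and -0.47.

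**Figure D3:**
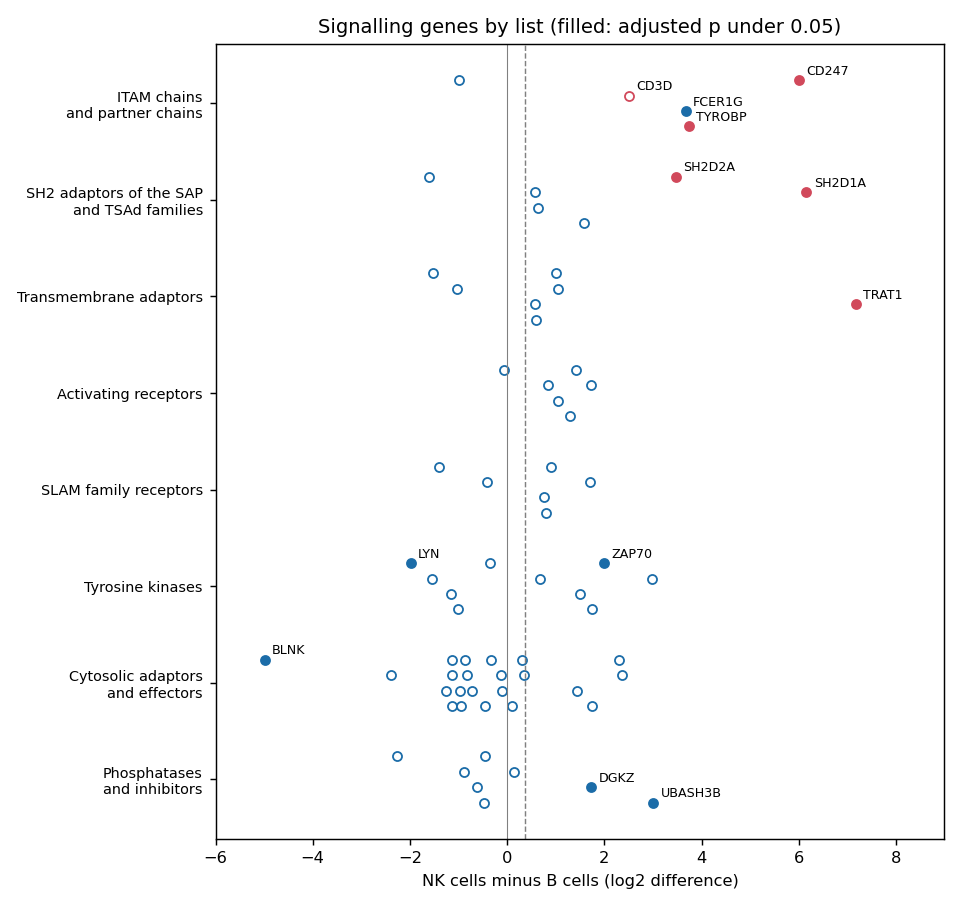
Difference between NK cells and B cells (log2) of each tested gene of the 8 signalling lists, members in red and other genes in blue; filled points have an adjusted p under 0.05, and the dashed line is the median of all genes, 0.36. The members TRAT1, SH2D1A and CD247 lie to the right of the other genes, with no order among them since the B cell signals of TRAT1 and SH2D1A were not well above background on 2 and 1 of 2 arrays, and BLNK lies farthest to the left.

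The next question was whether any member differed among the NK subsets. None did after adjustment: 0 of 6 members passed in the comparison of all 4 subsets, in any of the 6 pairs (36 tests), in the effect of CD27 with CD11b balanced, in the effect of CD11b with CD27 balanced, or in their interaction. The share of all 12192 genes that passed was 0% in each of these but the effect of CD11b, where it was 0.0164% (2 genes, neither a member). At an unadjusted p under 0.05 by limma, 1 of 6 members passed over the 4 subsets (8.76% of genes), 3 of 36 in the pairs (8.52% of tests over all genes), 2 of 6 for CD27 (22.2% of genes), 0 for CD11b (5.04%) and 0 for the interaction (1.44%). No member separated any pair of subsets without overlap, which 5.4% of genes did on average over the 6 pairs.

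**Figure D4:**
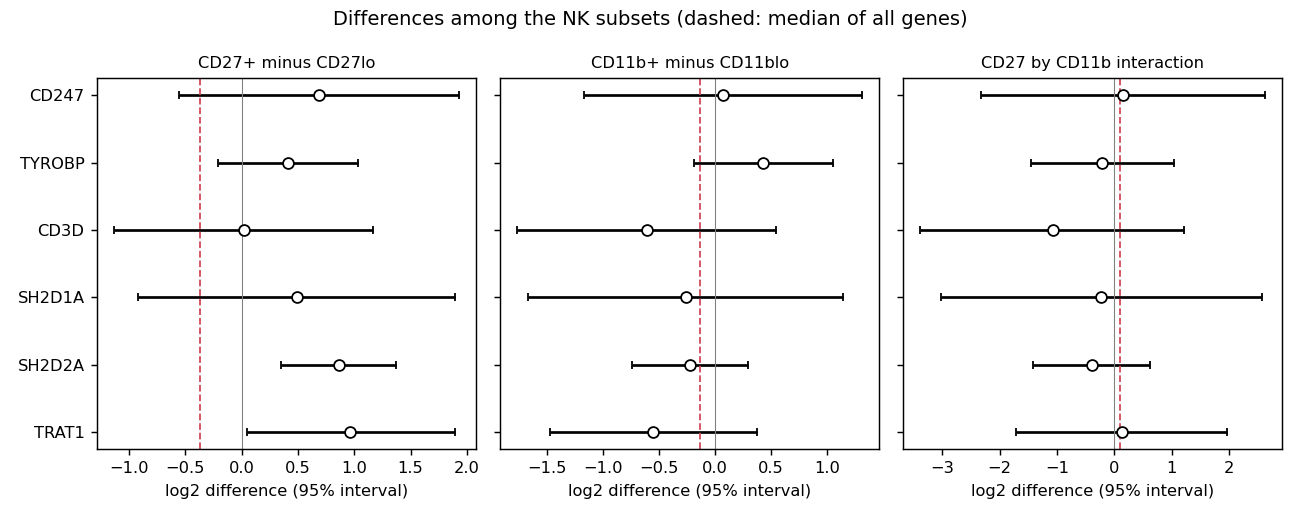
Effects of CD27 and of CD11b and their interaction on the 6 genes over 18 NK arrays (log2 difference with 95% interval); the dashed line is the median of all genes. Open circles mark that none passed after adjustment; for CD27 the intervals of SH2D2A and TRAT1 lie above 0 and above the all-gene median of -0.37.

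SH2D2A was the member that followed the sort most closely. The 9 CD27+ arrays ran from 2.12 to 4.05 (mean 3.15 ± 0.58 SD) and the 9 CD27lo arrays from 1.92 to 2.77 (2.31 ± 0.27). The ranges overlap, and 1 CD27+ array, double-positive replicate 3, lies below the CD27lo mean. The CD27 effect was 0.86 ± 0.25 (SE; 95% interval 0.35 to 1.37; unadjusted p = 0.00238, adjusted p = 0.196 by limma), where the median gene differed by -0.37. The second SH2D2A probe gave 0.96 ± 0.24 (unadjusted p = 0.000729, adjusted p = 0.213 by limma over all probes). The subset accounted for 55.2% of the variance of SH2D2A over NK arrays, against 21.9% for the median gene.

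By mean SH2D2A was highest in CD27 single-positive cells (3.38 ± 0.62 SD, n = 4), then double-positive (2.96 ± 0.53, n = 5), double-low (2.32 ± 0.31, n = 4) and CD11b single-positive cells (2.30 ± 0.27, n = 5). The upper pair and the lower pair each lie within their spread, and double-positive minus double-low, between them, was 0.64 (95% interval -0.09 to 1.36). CD11b single-positive minus CD27 single-positive was -1.08 ± 0.35 (SE; 95% interval -1.81 to -0.36; unadjusted p = 0.00567, adjusted p = 0.812 by limma), and CD27 single-positive minus double-low was 1.06 ± 0.37 (0.29 to 1.83; unadjusted p = 0.00927, adjusted p = 0.374). Over 4 labels of origin, sex and age that hold all 4 subsets, CD27 single-positive cells were the highest subset for SH2D2A in 4. In the Vietnam male numbered 3 they were above double-low cells by only 0.04. The CD27 effect within a label was 1.18 in the Cambodia male, 1.32 and -0.04 in the Vietnam males numbered 2 and 3, and 0.91 in the Singapore female aged 18 years.

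The call for SH2D2A depends on how arrays are weighted and combined. With array weights its CD27 effect was 0.95 and passed (adjusted p = 0.0136), and so did its difference over the 4 subsets (adjusted p = 0.0467, where 1.73% of genes passed); array weights also passed 32.6% of all genes for CD27, 6.56% as higher. Within slide 1 the effect was 1.25 and passed (adjusted p = 0.0487), where 11.4% of genes passed, 4.90% as higher. Within slide 2 it was 0.20 (adjusted p = 1). Over 33 alternatives the effect ran from 0.20 to 1.25 and kept its sign, and its adjusted p ran from 0.0136 to 1.

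TRAT1 had the same order of means: CD27 single-positive (2.07 ± 0.48 SD, n = 4), double-positive (1.58 ± 0.90, n = 5), double-low (1.16 ± 0.82, n = 4) and CD11b single-positive (0.55 ± 1.36, n = 5). Neighbours in this order lay within their spread. The CD27 effect was 0.97 ± 0.44 (SE; 95% interval 0.05 to 1.89; unadjusted p = 0.0407, adjusted p = 0.219 by limma), and CD11b single-positive minus CD27 single-positive was -1.52 ± 0.62 (-2.82 to -0.21; unadjusted p = 0.0249, adjusted p = 0.812). Within labels the latter was -3.24 in the Cambodia male, -0.86 and -1.61 in the Vietnam males numbered 2 and 3, and -1.98 in the Singapore female aged 18 years, so CD11b single-positive cells were lower in 4 of 4. The CD27 effect passed with array weights (0.97, adjusted p = 0.0368); it was 0.55 without the 4 arrays of the Cambodia male, an alternative added after the levels were seen, and -0.22 within slide 2. Its adjusted p ran from 0.0368 to 1 over 33 alternatives.

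For the other 4 members the intervals of the CD27 effect take in 0: 0.69 (-0.56 to 1.93) for CD247, 0.41 (-0.21 to 1.03) for TYROBP, 0.49 (-0.92 to 1.89) for SH2D1A and 0.02 (-1.13 to 1.17) for CD3D. Differences of up to a factor of about 2 for TYROBP, and more for the rest, lie within these intervals. Within slide 1 SH2D1A had a CD27 effect of 1.77 that passed (adjusted p = 0.0487), while within slide 2 it was -0.73 (adjusted p = 1). The effect of CD11b was 0.43 (-0.19 to 1.05) for TYROBP and -0.61 (-1.76 to 0.54) for CD3D. TYROBP was lowest in double-low cells in 4 of 4 labels, in the Vietnam male numbered 3 by only 0.01. With the second TYROBP probe double-low cells were lowest only in the Cambodia male and in that Vietnam male. In the Vietnam male numbered 2 that probe gave 3.85 in CD27 single-positive and 3.86 in double-low cells. In the Singapore female with all 4 subsets it gave 3.53 in double-positive and 4.45 in double-low cells. With the first probe double-positive minus double-low was 0.84 ± 0.42 (SE; unadjusted p = 0.06, adjusted p = 0.251 by limma).

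**Figure D5:**
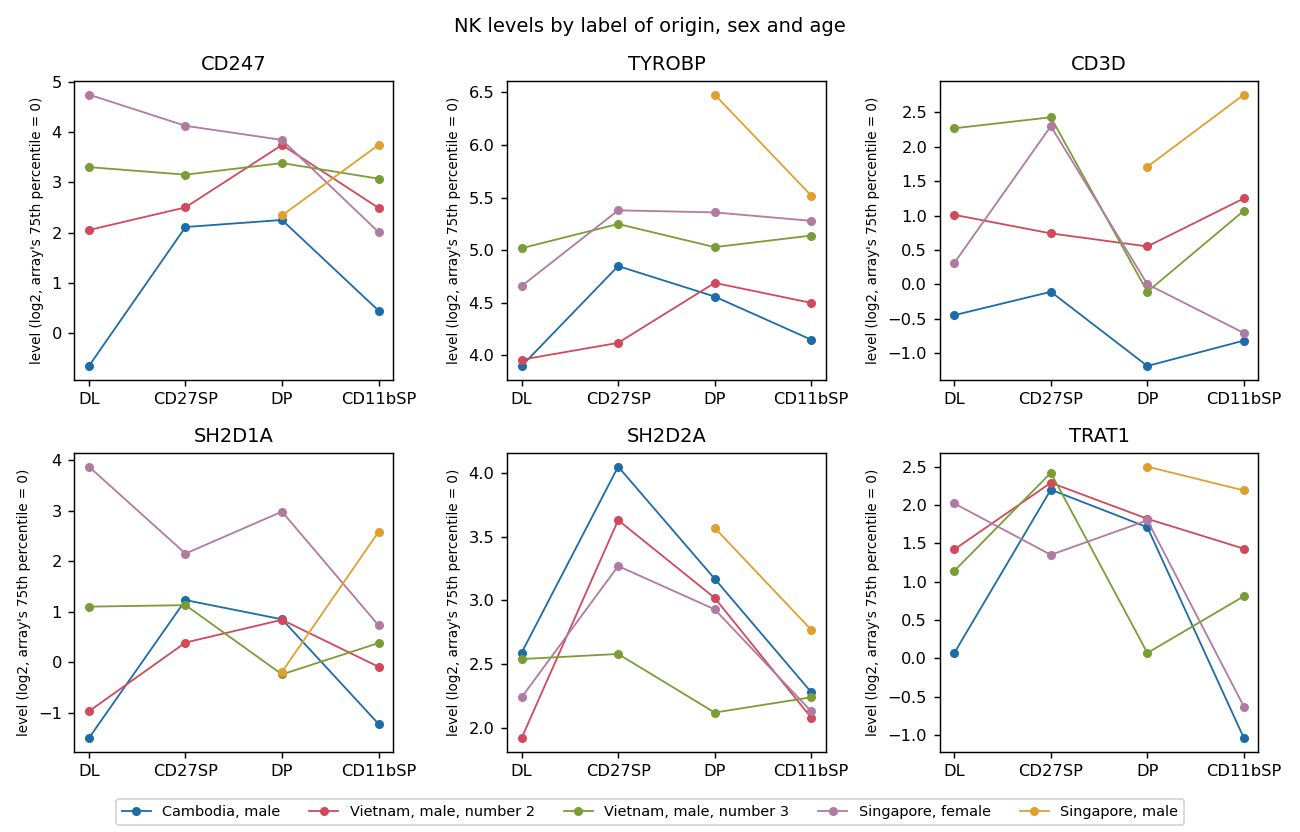
Levels of the 6 genes in the 4 NK subsets (log2, the array's 75th percentile set to 0), with lines joining arrays that share a label of origin, sex and age; the Singapore male has 2 arrays. For SH2D2A the CD27 single-positive array is the highest of all 4 complete labels, in the Vietnam male numbered 3 by only 0.04. For TYROBP the Cambodia male and the Vietnam male numbered 2 are the lowest in every subset.

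TYROBP, CD247, SH2D1A and CD3D varied more with the label of origin, sex and age than with the subset. The label accounted for 75.7% of the variance of TYROBP over the 18 NK arrays, 57.2% of that of CD3D, 56.3% of that of CD247 and 48.6% of that of SH2D1A, against 25.6% for the median gene. The subset accounted for 22.3%, 11.8%, 7.67% and 3.89%. The slide, which overlaps with the label, accounted for 70.4%, 22.7%, 38.3% and 28.8%, against 15.3% for the median gene. These shares are descriptions over 5 labels, 4 subsets and 3 slides.

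For TYROBP the slide went with the label. Its 8 NK arrays on slide 1 ran from 3.90 to 4.85 (mean 4.34 ± 0.35 SD), the 6 on slide 2 from 4.66 to 5.38 (5.08 ± 0.25) and the 4 on slide 3 from 5.28 to 6.48 (5.66 ± 0.56). Only double-low replicate 4 of the later slides fell within the range of slide 1. Slide 1 holds the arrays of the Cambodia male and the Vietnam male numbered 2 and no others, and it was scanned on another day than slides 2 and 3. For slide 1, slide, scan day and label thus cannot be told apart. In each subset these arrays were lower than every array of the other labels. The effect of CD11b on TYROBP was 0.17 with the slide in the model and 0.43 without.

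In the arrays of the Cambodia male CD247 averaged 1.04 ± 1.39 (SD, n = 4) and CD3D -0.64 ± 0.46, the lowest mean of the 5 labels for each gene. SH2D1A averaged 2.43 ± 1.34 in the Singapore female aged 18 years (n = 4), the highest of the labels, and -0.16 ± 1.40 in the Cambodia male. TRAT1 too was lowest in the Cambodia male (0.73 ± 1.49). SH2D2A was not: it averaged 3.02 ± 0.78 in the Cambodia male and 2.37 ± 0.23 in the Vietnam male numbered 3. The Cambodia arrays all lie on slide 1. Against labels of other slides, slide, scan day and label thus cannot be told apart for these genes. Over NK arrays CD247 averaged 1.87 on slide 1 and 3.37 on slides 2 and 3, SH2D1A -0.06 and 1.45, and CD3D 0.12 and 1.20. The Vietnam male numbered 2, also on slide 1, averaged 2.70 for CD247, 0.04 for SH2D1A and 0.89 for CD3D. SH2D2A (SD 0.62) and TYROBP (0.65) varied least over NK arrays, SH2D1A (1.44), CD247 (1.30), CD3D (1.21) and TRAT1 (1.06) more, and the median gene had an SD of 0.94.

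Among the 15 pairs of members, 4 correlated above 0.5 over the 18 NK arrays. CD247 and SH2D1A were the most alike (Pearson r = 0.81), more alike than CD247 and 99.9% of genes. The value was 0.75 without the arrays at which CD247 was farthest from its median (double-low and CD11b single-positive replicate 1), 0.77 over the 8 arrays of slide 1 and 0.90 over the 6 of slide 2. SH2D2A and TRAT1 correlated at 0.57, at 0.34 with subset means removed, at 0.58 on slide 1 and at 0.30 on slide 2. CD247 and TYROBP, both ITAM chains, correlated at 0.47. The value for CD247 and TYROBP was 0.17 without the same 2 arrays and 0.74 without the 2 dimmest arrays. It was 0.63 over the arrays of slide 1 and -0.5 over those of slide 2. The arrays share slides and scaling and may share animals, so these values describe these samples only.

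The genes whose levels ran most closely with each member over the 18 NK arrays are named as a description. For TYROBP they were CST7 (r = 0.91), a protease inhibitor of cytotoxic cells, and the ribosomal proteins RPS15 and RPS28 (0.90 each). For CD247 they were RBM8A (0.91) and DDX3X (0.89), both RNA-binding, and the cyclin CCND2 (0.87), and for SH2D1A the elongation factor TCEA1 (0.90), HNRNPH2 (0.86) and KLHDC7A (0.86). SH2D2A ran with POLR1E (0.88), a subunit of RNA polymerase I, the kinase subunit PRKACB (0.87) and BTG1 (0.86). TRAT1 ran with PAN3 (0.90), ANKRD44 (0.89) and the complement regulator CD46 (0.85), and CD3D less closely with TSN (0.80), LOC101866089 (0.79) and FAM174C (0.76).

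The further signalling genes did not pass among NK subsets either: 0 of 64 did for CD27, for CD11b or over all 4 subsets. At an unadjusted p under 0.05 by limma 13, 4 and 8 of the 64 passed, beside 22.2%, 5.04% and 8.76% of all genes. For CD27 the 22 cytosolic adaptors and effectors had a median of 0.57 with 16 differences above 0, and the 8 phosphatases and inhibitors a median of 0.69 with 8 above 0. The median of all genes was -0.37. The 6 receptors had a median of -0.34 with none above 0. The ITAM chains, with the members CD247, TYROBP and CD3D among them, had one of 0.41 with 4 of 5 above 0. SH2D2A and SH2D1A lay above 0 in a list of SH2 adaptors whose other 4 members lay below, with a list median of -0.70.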

How the data were processed

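Total RNA of sorted cells (50 ng) was amplified and 400 ng of product was labelled with Cy3, per the labels' protocols. Scanner files from Agilent Feature Extraction 10.7.1.1 gave processed signal, median signal and median background as intensity on a linear scale, per the file headers. The deposited matrix holds log2 values of the same arrays: probes ranked the same as by scanner signal on every array (Spearman 1), had 1 shared median of 8.021, and its processing is not given in the sources used here beyond Partek being named in the submitters' processing notes.

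Outlier spots were removed, spots of a probe averaged, and each array's 75th percentile of log2 signal subtracted. Accessions without version matched 20417 of 58659 probes (34.8%) to 12530 genes of the RefSeq table, and the brightest probe stood for its gene. Probes well above background on at least 4 of 18 NK arrays (2 of 20 for the B cell fit) were tested with limma 3.58.1 in R 4.3.3 (trend and robust, no block, Benjamini-Hochberg over all genes). The 4 NK subsets, or these and B cells, shared 1 estimate of the spread. The SE is that of the fit. A fold against a group not above background is a bound against the dimmest signal well above background. Genes were named by fixed rules: all 6 members, up to 4 called genes a list or else the 2 of lowest p, and the 3 genes of highest correlation with a member. The members and lists were chosen with earlier results of these data known. Alternatives changed the scaling, background correction, filter, probe rule, weights, blocks and arrays used; since the files hold no mean signal column, normexp used the median signal and median background (offset 50). Scripts were checked on simulated data. Arrays hold no counts, and the number of arrays, above all the 2 of B cells, limits precision. Of the fixed lists, 2 genes are not reported here and were left out of the list counts, a choice that did not depend on their values. Sequences and genome coordinates are not used here.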

Additional observations from a re-analysis of the deposited data

Results flagged for a closer look

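SH2D2A in CD11b single-positive replicate 4 was 2.77, far from the other 4 arrays of that subset (2.08 to 2.28) by Dixon's test at the 95% level. It was 1 of 32 groups of 4 or 5 arrays checked over the 8 probes, and chance alone gives about 1 in 20. The second SH2D2A probe had no array beyond the limit in that subset.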

How the results depend on the processing

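The counts of members called kept within 1.5 times of the reported count under most alternatives. The exceptions were the effect of CD27 (0 members as reported, 2 with array weights and 2 within slide 1), the difference over all 4 subsets (0 as reported, 1 with array weights) and the subsets against B cells (20 of 24 as reported, 9 within slide 2). Leaving out 1 array gave 11 to 20 of 24 for the last and 4 or 5 of 6 for NK against B cells. Leaving out B cell replicate 1 was thus a further exception for the subsets against B cells. The cause of these changes was not tested, beyond the fewer arrays used within a slide or with 1 B cell array. No called difference changed sign; 143 uncalled differences among NK subsets did, none past the threshold on either side.

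The labels do not say that the replicate number pairs the samples, and not every same-numbered pair of arrays correlated above 0.1, so the number was not taken as a pairing. Same-numbered arrays of different subsets correlated at -0.30 to 0.41 in their deviations (median 0.22, 17 of 25 pairs over 0.1), and other arrays of different subsets had a median of -0.07 (22 of 96 over 0.1); not every array correlated best with one of its own number. Number 4 joins labels of different sex and age. With the replicate number as a block 5 of 6 members passed between NK and B cells, 20 of 24 in the single subsets and 0 in each comparison among NK subsets, as without it. With the slide as a block the member counts were 5, 21 and 0. With the label of origin, sex and age as a block the count was again 0 in each comparison among NK subsets. B cell replicate 1 is the only array of its label, so with that block the difference from B cells rests on B cell replicate 2 alone. It is therefore no check over both B cell arrays.

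The number of all genes called between NK and B cells moved far more than the members did: 362 as reported (213 higher, 149 lower), 251 (89 and 162) with quantile normalization, 252 (98 and 154) with normexp, 253 (88 and 165) in the deposited matrix, 1824 with every probe tested, 5673 with array weights, 600 with the slide as a block, 84 with the label as a block, 1924 within slide 2, 64 without either B cell array and 719 without CD11b single-positive replicate 4. For CD27 it was 0 as reported, 3972 with array weights and 1385 within slide 1. The median of all genes for NK minus B cells was 0.36 as reported and 0.17 with quantile normalization.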
